A study of Mus musculus with 23 samples.

Results

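The genes described here are 42 genes of DNA replication and mitosis, taken by gene symbol from a fixed list and measured in single mouse cells on Affymetrix expression arrays. All 42 were on the array, among 18193 genes with a symbol, and 102 probe sets carried their names: 13 genes had 1 probe set and 29 had several. The 23 samples were 1 cell each, drawn into a glass pipette after culture in medium with serum, and their RNA was amplified before labelling. FibroTIPeR cells (5) were fibroblasts transfected with poly-A RNA of cardiomyocytes by a lipid reagent, a procedure called transcriptome-induced phenotype remodeling. FibroControl cells (3) were fibroblasts given RNA of fibroblasts the same way, so they share the transfection with fibroTIPeR cells. Cardiomyocyte cells (4) and fibroblast cells (3) were not transfected. AstroTIPeR cells (6) were astrocytes given cardiomyocyte RNA, and the 2 astroControl cells were astrocytes after a mock transfection. No source used here gives the strain, age, culture of origin or time after transfection. The p-values weigh differences between group means against the spread of single cells within groups, which can be partly technical. Single cells, whose cultures are not known, are the replicates, and precision is limited by the few arrays. An array cannot tell transferred RNA from a cell's own RNA.

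Cells copy their DNA once per division. The Mcm2 to Mcm7 ring, loaded at origins with the help of Cdc6 and activated by Cdc45 and the GINS complex, unwinds the double helix; replication factor C opens the Pcna ring and places it on DNA, where it tethers the polymerases; ribonucleotide reductase and thymidylate synthase supply deoxynucleotides. Cyclins switch on cyclin-dependent kinases, and in mitosis kinases such as Plk1 and Aurora A and B, the spindle checkpoint and the anaphase-promoting complex order chromosome separation. Cultured fibroblasts and astrocytes can divide in serum, whereas cardiomyocytes largely leave the cell cycle after birth. Many of these genes are switched on late in G1 by E2F factors, or before mitosis through CCAAT boxes and the cell cycle homology region (CHR).

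Promoter windows were available for 32 of the 42 members, in 34 windows of 280 bases, from 250 before the transcription start to 30 after it (RefSeq, build GRCm38.p6). The letters CCAAT, the core of the CCAAT box, stood on 1 or the other strand in 25 of the 34 windows (73.5%), against 36.1% of 32851 windows of all genes. The CHR letters TTTGAA stood in 10 windows (29.4%, against 17.2% of all windows), and at least 1 E2F-type motif (the letters TTGGCGC, or the letters TTCCCGC, or the letters TTCGCGC, or the letters TTGCCGC) in 12 (35.3%, against 8.9%). A match describes letters, not a bound site, and none of these motifs overlapped another in the windows printed here. The 4 windows shown belong to the members that passed the test in any comparison below. Capitals mark these motifs on either strand, and the last 30 bases of each window begin at the transcription start. Rfc3 lies at chr5:151651179-151651458 (minus strand), Melk at chr4:44300667-44300946 (plus strand), Cdc20 at chr4:118437314-118437593 (minus strand) and Zwint at chr10:72654596-72654875 (plus strand).
Rfc3: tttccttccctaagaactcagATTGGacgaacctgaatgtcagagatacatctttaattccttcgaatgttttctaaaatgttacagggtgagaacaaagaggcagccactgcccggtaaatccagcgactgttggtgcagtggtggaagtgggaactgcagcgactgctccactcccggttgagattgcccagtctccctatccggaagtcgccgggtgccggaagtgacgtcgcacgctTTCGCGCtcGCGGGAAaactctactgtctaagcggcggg
Melk: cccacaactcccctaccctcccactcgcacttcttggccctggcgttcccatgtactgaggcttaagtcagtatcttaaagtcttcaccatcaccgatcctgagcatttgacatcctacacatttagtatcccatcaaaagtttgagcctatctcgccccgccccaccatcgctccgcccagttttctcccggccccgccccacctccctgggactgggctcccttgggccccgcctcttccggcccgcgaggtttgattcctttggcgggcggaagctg
Cdc20: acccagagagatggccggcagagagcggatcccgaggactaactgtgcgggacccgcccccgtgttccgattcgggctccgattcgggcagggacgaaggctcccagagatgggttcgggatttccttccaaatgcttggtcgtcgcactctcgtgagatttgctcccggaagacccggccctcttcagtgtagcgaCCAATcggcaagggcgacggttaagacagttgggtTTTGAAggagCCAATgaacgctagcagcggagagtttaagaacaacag
Zwint: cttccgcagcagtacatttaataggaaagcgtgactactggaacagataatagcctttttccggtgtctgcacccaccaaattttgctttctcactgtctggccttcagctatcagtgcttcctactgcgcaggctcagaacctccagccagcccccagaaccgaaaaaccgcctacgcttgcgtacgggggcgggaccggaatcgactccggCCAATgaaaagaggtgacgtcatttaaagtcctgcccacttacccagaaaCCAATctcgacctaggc
Rfc3 held both E2F-type runs beside the start and a CCAAT box far upstream, Cdc20 held a CHR between 2 CCAAT boxes near the start, and Zwint held 2 CCAAT boxes. The Melk window held none of the searched letters.

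Levels are log2 values after quantile normalization of all arrays, because the deposited column medians differed by 1.29. They can be compared between cells for a probe set, but not between probe sets. By marker medians the labels of cardiomyocytes and fibroblasts followed the markers. The median of 7 cardiomyocyte markers averaged 5.44 in fibroTIPeR, 5.17 in fibroControl, 9.90 in cardiomyocyte and 5.78 in fibroblast cells. That of 7 fibroblast markers averaged 9.31, 10.99, 6.07 and 9.66 in the same order. In cardiomyocytes against fibroblasts, 6 of 7 cardiomyocyte markers averaged higher and 6 of 7 fibroblast markers lower. The exceptions were Tnnt2 (7.99 against 8.46) and Dcn (10.17 against 8.85), and Fn1 was nearly equal (5.58 against 5.61). The median of 6 astrocyte markers averaged 7.35 in astroTIPeR and 6.42 in astroControl cells, against 7.14 in fibroblasts. Gfap, the defining one, averaged 4.69 in astroTIPeR and 5.32 in astroControl cells, against 6.01 in fibroblasts, and Aqp4 was likewise lower in both astrocyte groups, whereas Slc1a2 (8.82 against 7.64), S100b (8.30 against 7.81), Slc1a3 (10.49 against 10.33) and Aldoc (5.68 against 4.96) averaged higher in astroTIPeR cells than in fibroblasts and lower in astroControl cells than in fibroblasts. The level of 18S ribosomal RNA, from 3 control probe sets, was 12.38, 11.03 and 13.48 in fibroTIPeR 1 to 3 but 7.80 and 7.88 in fibroTIPeR 4 and 5; it was 11.23 to 12.08 in fibroControl, 6.94 to 8.24 in cardiomyocyte and 7.05 to 8.06 in fibroblast cells, and 7.63 to 9.57 in astroTIPeR and 8.17 to 9.09 in astroControl cells. It was thus high in all 3 fibroControl and in 3 of 5 fibroTIPeR cells, and low in the untransfected cells.

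The first comparison asks what cardiomyocyte RNA went with in fibroblasts beyond transfection itself. No member passed in fibroTIPeR against fibroControl cells (0 of 42, against 0.00550% of all genes by limma, adjusted p under 0.05), and 6 members had an unadjusted p under 0.05, against 6.62% of all genes. The member differences had a median of 0.11, against -0.020 over all genes. The 3 smallest p belonged to Zwint, Plk1 and Mcm2. Zwint, a kinetochore protein, differed by 3.61 (SE 0.99, adjusted p = 0.337 by limma), Plk1, a kinase of mitotic entry and exit, by -2.65 (SE 0.83, adjusted p = 0.455), and Mcm2 by 1.80 (SE 0.60, adjusted p = 0.496). The groups did not overlap in 5 of 42 members, against 545 of 18193 genes. On the probe sets used, Zwint and Rfc2 were higher in every fibroTIPeR cell than in any fibroControl cell, and Plk1, Tyms and Mad2l1 were lower in every one. Zwint, Rfc2 and Tyms each also had a probe set on which these groups overlapped. On 1 such Zwint probe set, fibroTIPeR cells had 5.38 to 7.74 and fibroControl cells 6.32 to 8.60. Zwint and Tyms each had another on which they did not overlap, in the same direction as the one used.

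Against untreated fibroblasts, both transfected groups had members past the threshold. FibroTIPeR cells had 1 (Rfc3, lower) of 42, against 0.0550% of all genes. FibroControl cells had 3 (Rfc3 and Cdc20 lower, Melk higher), against 1.56%. These comparisons share the 3 fibroblast cells, so the lower Rfc3 of both rests on the same fibroblast values. Members with an unadjusted p under 0.05 numbered 9 in fibroTIPeR (10.1% of all genes) and 7 in fibroControl cells (17.3%), and members whose groups did not overlap numbered 6 (5.01%) and 10 (23.4%). The median member difference was -0.19 in each, against 0.0040 and 0.029 over all genes.

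Among untransfected cells, no member passed between cardiomyocytes and fibroblasts (0 of 42, against 0.225% of all genes), 6 had an unadjusted p under 0.05 (9.72% of all genes), and 7 did not overlap (12.6%). The median member difference was 0.29, against 0.087 over all genes. The 3 smallest p belonged to Zwint, with a difference of -4.25 (adjusted p = 0.0919 by limma), Cdc20, with -0.78 (adjusted p = 0.141), and Kif20a, with -2.34 (adjusted p = 0.303). Transfected fibroblasts against cardiomyocytes gave 1 call each: Zwint was higher in fibroTIPeR cells (1 of 42, against 0.561% of all genes), and Melk was higher in fibroControl cells (1 of 42, against 3.32%). There 12 and 9 members had an unadjusted p under 0.05 (14.3% and 19.5% of all genes), and 4 and 9 did not overlap (3.90% and 19.5%). Both comparisons share the 4 cardiomyocytes. The plot of differences by role shows wide intervals for most members.

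**Figure D1:**
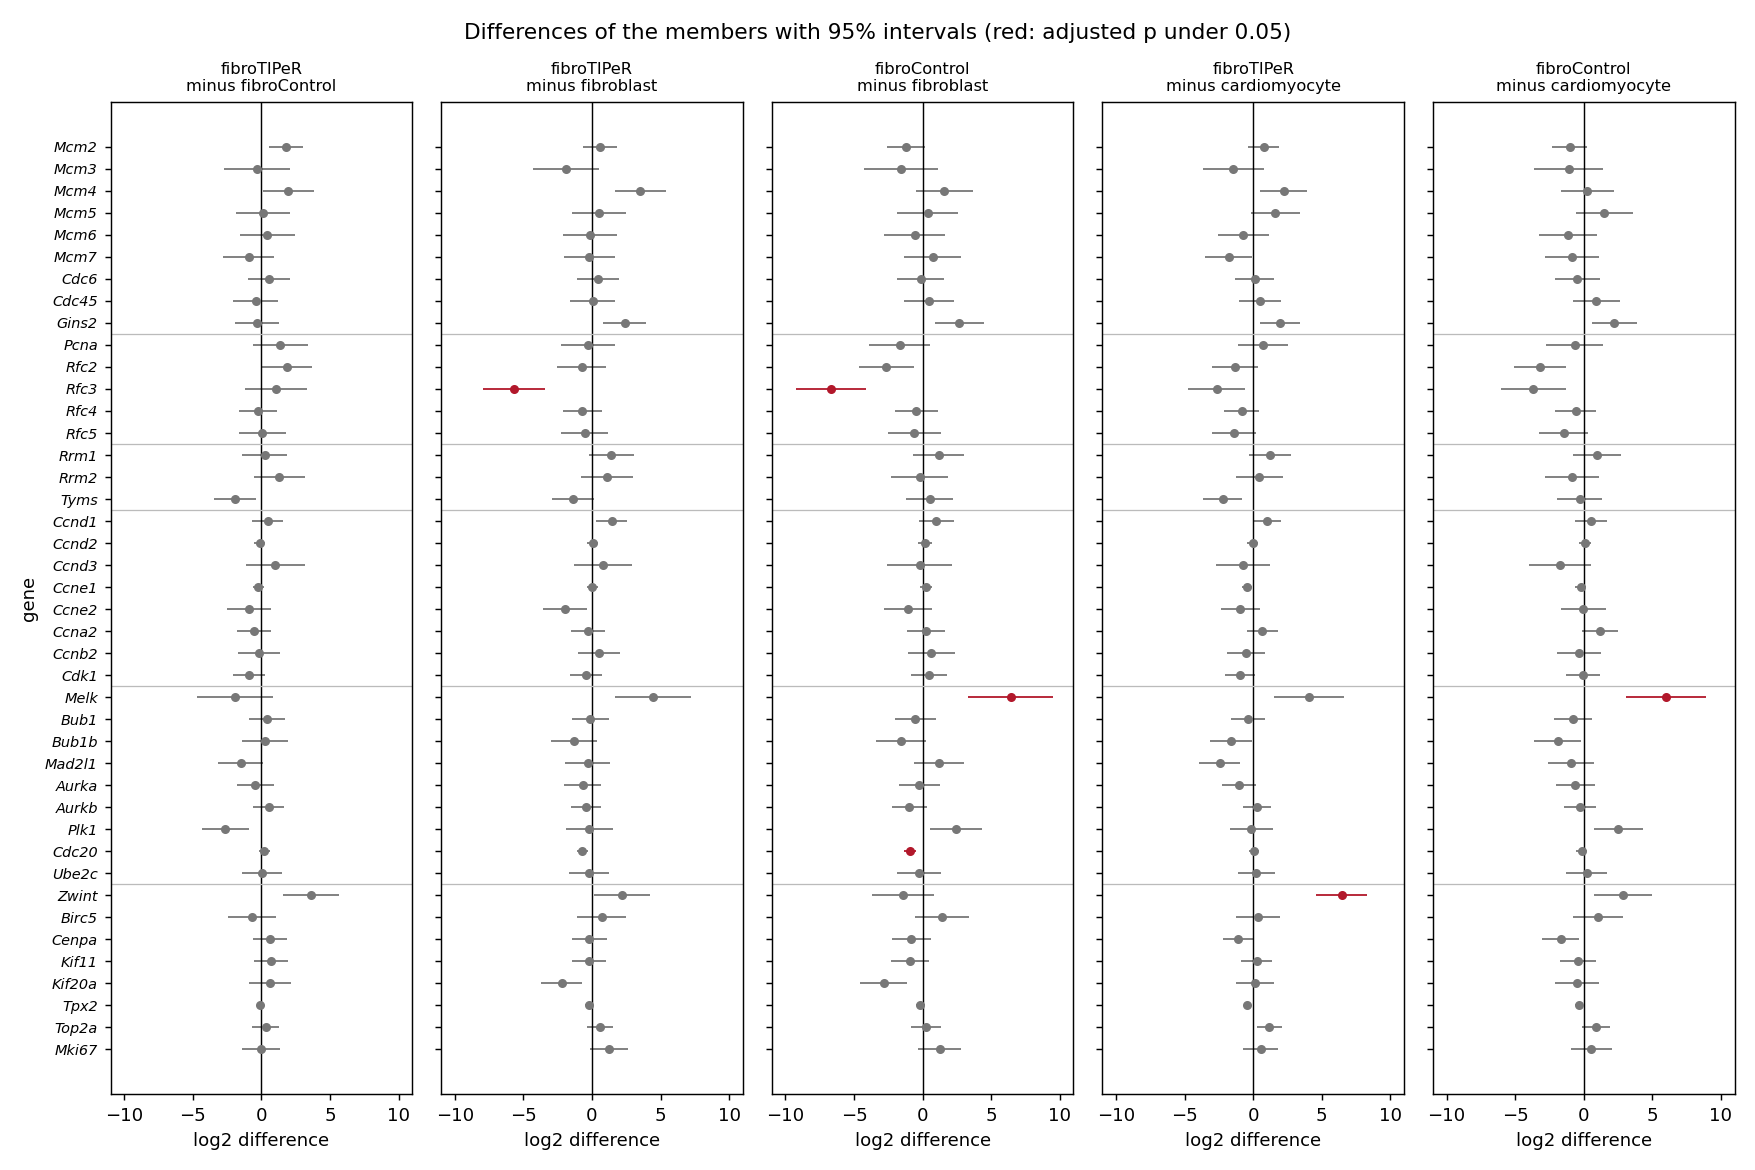
Log2 difference of each of the 42 members (rows, grouped by role) with its 95% interval from limma in 5 comparisons (panels); red marks an adjusted p under 0.05. Rfc3 lies to the left in both panels against fibroblasts, Melk to the right for fibroControl cells against fibroblasts and cardiomyocytes, Zwint to the right for fibroTIPeR cells against cardiomyocytes, and no member is red for fibroTIPeR against fibroControl cells.

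Of the 9 genes of the replicative helicase and its loading, none passed in any comparison. Mcm4, a helicase subunit, had 8.23, 8.74, 4.78, 4.70 and 3.72 in fibroTIPeR cells, 3.54, 5.32 and 3.35 in fibroControl cells, 2.56, 2.70, 4.52 and 5.43 in cardiomyocytes, and 3.09, 1.75 and 2.66 in fibroblasts. FibroTIPeR 1 and 2 stood above all other cells of these groups, while the other 3 fibroTIPeR cells lay within the range of the cardiomyocytes; every fibroTIPeR cell lay above every fibroblast. The difference from fibroblasts was 3.53 (SE 0.91, adjusted p = 0.164 by limma), and the 2 highest cells were among the 3 with high 18S, of which fibroTIPeR 3 had 4.78. Gins2, a subunit of the GINS complex, had 9.93, 5.82, 7.77, 6.44 and 7.66 in fibroTIPeR, 8.40, 7.43 and 7.66 in fibroControl, 5.84, 5.49, 6.15 and 4.87 in cardiomyocyte and 5.58, 5.24 and 4.63 in fibroblast cells. On this probe set, the one used, both transfected groups lay above the fibroblasts without overlap, by 2.37 (SE 0.77, adjusted p = 0.291) and 2.68 (SE 0.86, adjusted p = 0.101), which missed the threshold. On the other Gins2 probe set both overlapped with the fibroblasts. There fibroTIPeR cells had 2.32 to 4.43, fibroControl cells 3.20 to 4.52 and fibroblasts 2.94 to 3.62. Mcm7, another helicase subunit, was 4.58 in fibroTIPeR 1 and 10.18 to 11.14 in the other 4 fibroTIPeR cells on the probe set used. On each other Mcm7 probe set fibroTIPeR 1 was instead the highest fibroTIPeR cell, at 8.78, 5.59 and 3.81. On the probe set used, Mcm5 had 8.18 to 9.86 in astroTIPeR and 9.43 and 10.00 in astroControl cells. It had 3.97 to 9.66 in fibroTIPeR, 4.70 to 7.21 in fibroControl, 3.65 to 4.95 in cardiomyocyte and 4.61 to 6.60 in fibroblast cells. Another Mcm5 probe set had 4.12 to 7.27 in astroTIPeR and 6.39 and 5.38 in astroControl cells, against 4.95 to 8.98 in fibroblasts. A further one had 3.21 to 5.39 in astroTIPeR and 2.72 to 3.62 in fibroblast cells. Astrocytes were on arrays of another scale before normalization, so these levels stand side by side with no test.

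The sliding clamp and its loader held the lowest difference of all members. Rfc3, a small subunit of the clamp loader, had 4.03, 5.32, 4.29, 5.18 and 6.62 in fibroTIPeR cells, 4.60, 5.20 and 2.35 in fibroControl cells, 5.76, 11.02, 4.29 and 9.90 in cardiomyocytes, and 11.04, 9.09 and 12.10 in fibroblasts. Neither transfected group overlapped with the fibroblasts, the cardiomyocytes fell into 2 high and 2 low cells, and astrocytes were low throughout, at 3.73 to 5.32 in astroTIPeR and 4.69 and 6.49 in astroControl cells. Against fibroblasts Rfc3 differed by -5.66 in fibroTIPeR (SE 1.10, 95% interval -7.92 to -3.39, adjusted p = 0.0464 by limma) and by -6.69 in fibroControl cells (SE 1.23, interval -9.22 to -4.16, adjusted p = 0.0111). The fibroTIPeR call ended under 11 of 14 other settings, at differences of -6.08 (replicate block, adjusted p = 0.0636) to -3.36 (mean of both probe sets, adjusted p = 0.0549), and without fibroTIPeR 1, 2, 3 or 4 or fibroblast 1 or 3, at -5.71 to -4.98; the fibroControl call was kept with any cell left out and ended under 1 of 12 settings, the 18S level as a covariate (-6.33, adjusted p = 0.344). The second Rfc3 probe set was also lower in fibroControl cells, at 2.91, 2.31 and 2.77 against 3.94, 6.16 and 5.46 in fibroblasts (difference -2.53, adjusted p = 0.0344 over all probe sets, limma). It differed by -1.06 in fibroTIPeR cells (adjusted p = 0.496).

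On the probe sets used, all 5 genes of this role had negative differences from fibroblasts in both transfected groups. The medians were -0.70 in fibroTIPeR and -1.67 in fibroControl cells. On the same probe sets all 5 had negative differences in fibroControl cells against cardiomyocytes (median -1.47). Beyond Rfc3 none passed. Rfc2, which shares the loader with Rfc3, had 6.90, 6.91, 7.99, 8.59 and 8.65 in fibroTIPeR, 5.04, 6.27 and 6.49 in fibroControl, 9.16, 9.25, 8.84 and 9.33 in cardiomyocyte and 7.59, 8.60 and 9.51 in fibroblast cells. On this probe set, the one used, every fibroControl cell lay below every cell of the other 3 groups. There the fibroControl difference from cardiomyocytes was -3.21 (SE 0.92, adjusted p = 0.0510 by limma) and from fibroblasts -2.63 (SE 0.99, adjusted p = 0.156). On each other Rfc2 probe set fibroControl cells overlapped with all 3 groups. Another Rfc2 probe set went the other way for fibroTIPeR cells, which lay above all fibroblasts (3.95 to 5.32 against 2.06 to 3.42). FibroControl cells had 2.72 to 4.78 there. Pcna, the clamp itself, reached 10.67 and 9.73 in fibroTIPeR 1 and 3 and 10.12 in fibroblast 3 and lay between 4.86 and 7.66 in all other cells of the fibroblast and cardiomyocyte groups. Rfc5, a further loader subunit, had 6.34 to 10.84 in fibroTIPeR, 8.0004 to 10.14 in fibroControl, 10.51 to 11.04 in cardiomyocyte and 9.63 to 10.35 in fibroblast cells. Rfc4, also of the loader, had 2.57 to 4.26 in fibroTIPeR, 3.004 to 5.27 in fibroControl, 2.94 to 5.83 in cardiomyocyte and 4.04 to 4.59 in fibroblast cells.

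Deoxynucleotide supply showed no call. Rrm1, the large subunit of ribonucleotide reductase, had 8.45, 7.46, 6.08, 4.18 and 3.85 in fibroTIPeR cells, 6.24, 4.66 and 6.42 in fibroControl cells, 4.28 to 5.73 in cardiomyocytes and 3.63 to 5.15 in fibroblasts. On this probe set the 3 fibroTIPeR cells with high 18S were above all cardiomyocytes and fibroblasts, and the 2 with low 18S were within their range. Another Rrm1 probe set went the other way. There fibroTIPeR 1 to 3 had 2.55, 2.57 and 4.69, below all fibroblasts (4.86 to 6.82), and fibroTIPeR 4 and 5 had 4.92 and 6.37. On a further one fibroTIPeR cells and fibroblasts overlapped. Fitted with fibroTIPeR 1 to 3 alone, 5 members passed against fibroblasts (Mcm4 and Rrm1 higher, Rfc3, Cdc20 and Ccne2 lower), against 3.35% of all genes, and with fibroTIPeR 4 and 5 alone none did, against 0% of all genes. Rrm2, the small subunit, was 7.09 and 8.41 in fibroTIPeR 1 and 3 and at most 6.31 in any other cell of the 4 groups on the probe set used. On another Rrm2 probe set these 2 cells had 5.10 and 4.97, below fibroTIPeR 5 (6.09) and fibroblast 2 (5.98). On a further one they had 3.54 and 3.34, below fibroTIPeR 5 (5.065). Thymidylate synthase, Tyms, was lower in every fibroTIPeR cell (2.84 to 4.63) than in any fibroControl (4.78 to 7.75) or fibroblast cell (5.18 to 5.46) on the probe set used. The difference from fibroControl was -1.91 (SE 0.75, adjusted p = 0.610 by limma). On another Tyms probe set fibroTIPeR cells (3.22 to 5.58) overlapped with fibroControl (2.72 to 4.40) and fibroblast cells (3.72 to 5.20). On a further one they lay below all fibroControl cells (1.73 to 3.54 against 4.21 to 6.85) but overlapped with fibroblasts.

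**Figure D2:**
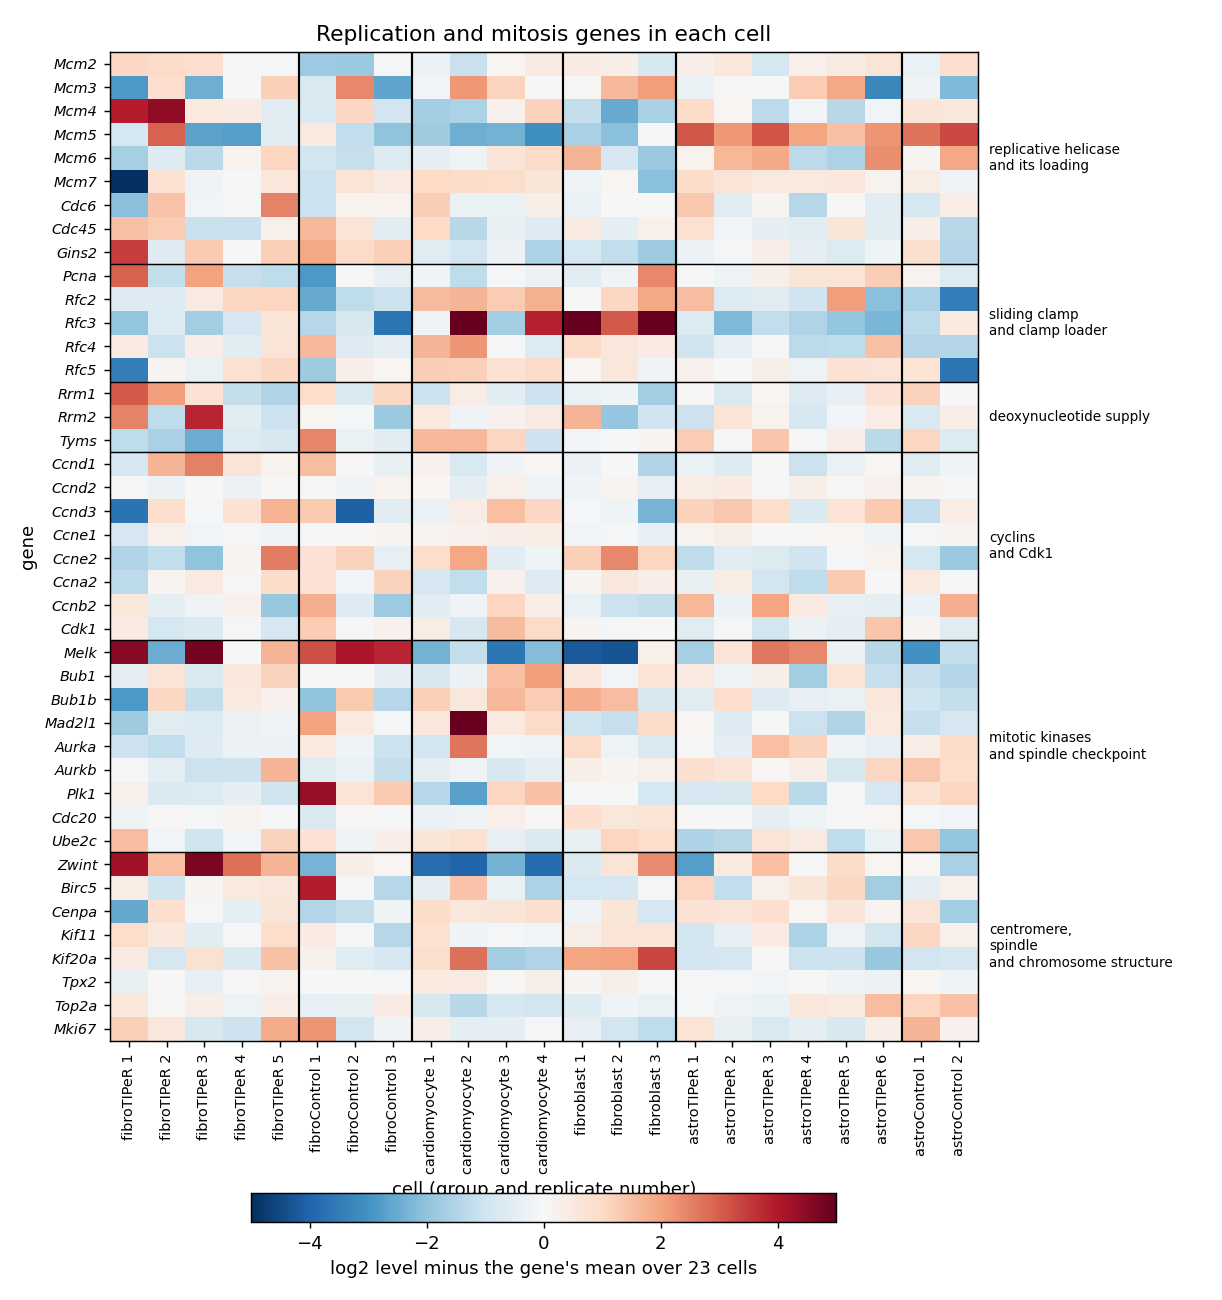
Log2 level of each of the 42 members (rows, grouped by role) minus its mean over 23 cells, in each cell (columns, grouped by label; red higher, blue lower, colours end at 5). Rfc3 is red in all 3 fibroblasts and 2 cardiomyocytes, Zwint is red in all 5 fibroTIPeR cells and blue in all 4 cardiomyocytes, and Ccnd2, Ccne1, Cdc20 and Tpx2 are pale throughout.

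None of the 8 cyclins and Cdk1 passed in any comparison. Ccnd1, the D-type cyclin that answers growth factors, had 10.18, 12.72, 13.51, 11.64 and 11.19 in fibroTIPeR cells, 12.56, 11.02 and 10.63 in fibroControl cells, 10.25 to 11.23 in cardiomyocytes and 9.51 to 11.003 in fibroblasts. The groups overlapped, with a difference of fibroTIPeR from fibroblast cells of 1.44 (SE 0.55, adjusted p = 0.396 by limma). Ccne2, an E-type cyclin like Ccne1, had 3.54, 3.83, 3.05, 5.17 and 7.59 in fibroTIPeR cells, against 6.23, 7.44 and 6.14 in fibroblasts (difference -1.97, SE 0.77, adjusted p = 0.401). Cdk1, the kinase of mitotic entry, lay between 3.68 and 6.15 in all 15 cells of the fibroblast and cardiomyocyte groups. Ccnb2, its B-type cyclin, had 2.55 to 4.98 in fibroTIPeR and 3.26 to 4.13 in fibroblast cells. Ccne1, a cyclin of S phase entry, and Ccnd2 hardly varied from cell to cell on the probe sets used. Their SDs within groups were 0.24 and 0.23, against a median of 0.99 over all genes. The other Ccne1 probe set ran from 2.91 to 5.83 over all cells. For Ccnd2 other probe sets did vary too, as described with the probe sets below.

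Of the 9 mitotic kinases and checkpoint genes, Melk and Cdc20 passed. Melk, a kinase that is high in dividing cells, had 11.40, 4.37, 11.66, 6.88 and 8.57 in fibroTIPeR cells, 10.03, 10.89 and 10.67 in fibroControl cells, 4.49, 5.66, 3.25 and 4.69 in cardiomyocytes, and 2.66, 2.54 and 7.10 in fibroblasts. All 3 fibroControl cells stood above every cardiomyocyte and fibroblast, while the fibroTIPeR cells reached from the cardiomyocyte range to above the fibroControl cells. Melk was higher in fibroControl cells by 6.43 against fibroblasts (SE 1.51, interval 3.34 to 9.53, adjusted p = 0.0309 by limma) and by 6.01 against cardiomyocytes (SE 1.41, interval 3.12 to 8.91, adjusted p = 0.0186). FibroTIPeR cells differed from fibroblasts by 4.48 (SE 1.35, adjusted p = 0.259) and from cardiomyocytes by 4.06 (SE 1.24, adjusted p = 0.146), neither past the threshold; the test of fibroTIPeR against fibroControl gave -1.95 (adjusted p = 0.842). All 3 fibroControl cells and fibroTIPeR 1 and 3 also had high 18S, but fibroTIPeR 2, with high 18S, had the lowest Melk of its group (4.37), and fibroTIPeR 5, with low 18S, had 8.57. With 18S as a covariate the fibroControl differences were 3.31 (adjusted p = 0.600) and 2.92 (adjusted p = 0.801). The call against fibroblasts also ended without fibroControl 1, 2 or 3 or fibroblast 1 or 2, at differences of 5.65 to 6.68, and the call against cardiomyocytes ended without fibroControl 2 or 3 or cardiomyocyte 3, at 5.59 to 5.95. Melk has 1 probe set on the array.

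Cdc20, which activates the anaphase-promoting complex, had 11.90, 12.23, 12.08, 12.31 and 12.19 in fibroTIPeR cells, 11.45, 12.23 and 12.09 in fibroControl cells, 11.84, 11.89, 12.42 and 12.17 in cardiomyocytes, and 13.003, 12.74 and 12.84 in fibroblasts. The 3 fibroblasts were the highest of all 23 cells, by a small margin over a narrow spread. The difference of fibroControl cells from fibroblasts was -0.94 (SE 0.22, adjusted p = 0.0309 by limma); those of fibroTIPeR (-0.72, adjusted p = 0.231) and cardiomyocyte cells (-0.78, adjusted p = 0.141) did not pass. The other probe sets of Cdc20 differed in sign: 1 was higher by 1.47 in fibroControl cells and 1 by 0.020, and with the mean of the 3 the difference was 0.18 (adjusted p = 0.879). The call also ended with fibroControl 1 or any of the 3 fibroblasts left out, at differences of -0.996 to -0.70. Plk1 was 4.50 to 5.76 in fibroTIPeR cells, 9.85, 6.21 and 6.84 in fibroControl cells and 4.63 to 5.53 in fibroblasts, so that the fibroControl cells stood above both other groups. Cardiomyocytes, at 4.09, 2.78, 6.60 and 6.97, overlapped with the fibroControl cells. Mad2l1, a checkpoint protein, was 9.91 in cardiomyocyte 2 and 5.49 to 5.93 in the other 3 cardiomyocytes. Aurkb, the Aurora kinase of the centromere, had 3.22 to 5.99 in fibroTIPeR, 3.096 to 3.96 in fibroControl, 3.51 to 4.13 in cardiomyocyte and 4.45 to 4.59 in fibroblast cells. On this probe set, the one used, the fibroblasts lay above all fibroControl cells and cardiomyocytes. On the other Aurkb probe set fibroblasts (3.74 to 4.25) overlapped with fibroControl cells (3.02 to 4.86) and cardiomyocytes (2.56 to 5.38).

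**Figure D3:**
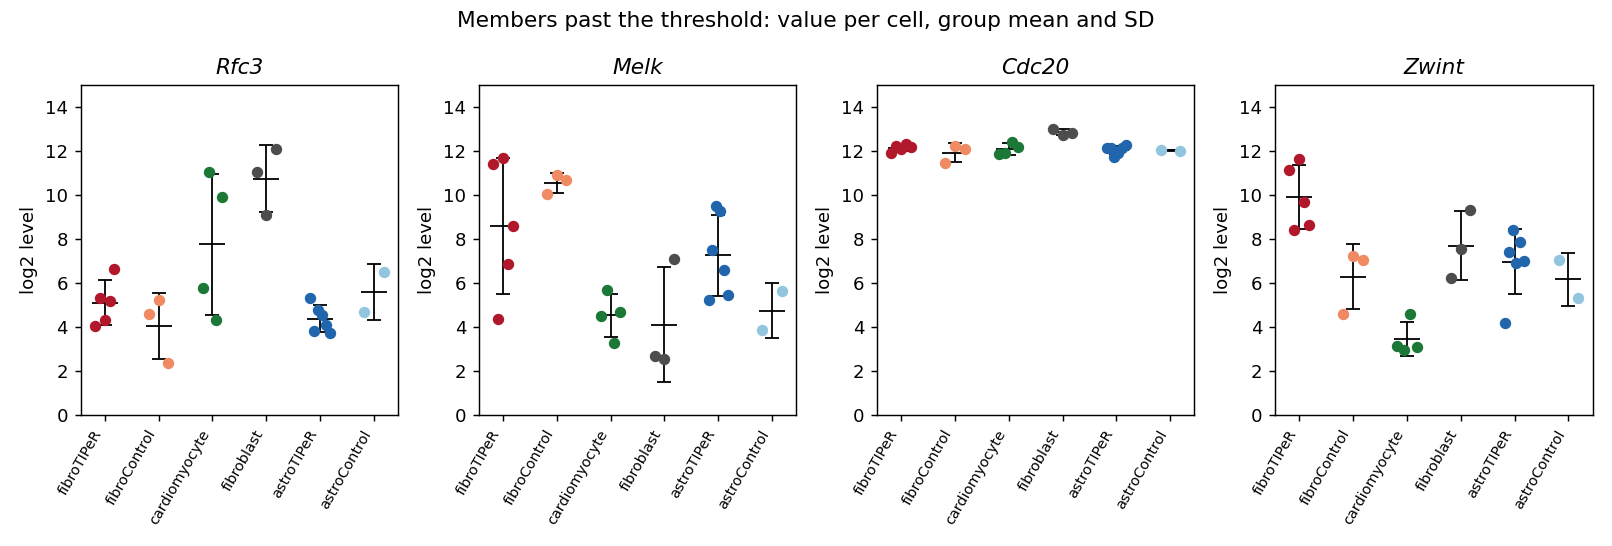
Log2 level of Rfc3, Melk, Cdc20 and Zwint in each cell (points), with the group mean and SD (bars). The 3 fibroblasts lie above all transfected fibroblasts for Rfc3, the 3 fibroControl cells lie between 10.03 and 10.89 for Melk, all cells lie between 11.45 and 13.003 for Cdc20, and the fibroTIPeR cells lie between 8.41 and 11.65 for Zwint.

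Among the 8 genes of the centromere, spindle and chromosome structure, Zwint passed. It had 11.12, 8.41, 11.65, 9.68 and 8.63 in fibroTIPeR cells, 4.60, 7.24 and 7.02 in fibroControl cells, 3.13, 2.95, 4.58 and 3.09 in cardiomyocytes, and 6.21, 7.56 and 9.31 in fibroblasts. Every fibroTIPeR cell was above every fibroControl cell and cardiomyocyte, and overlapped with fibroblast 3 only. Zwint was higher in fibroTIPeR cells than in cardiomyocytes by 6.46 (SE 0.91, interval 4.60 to 8.33, adjusted p = 0.000242 by limma), with any cell left out too (6.03 to 6.84). Against fibroblasts the difference was 2.21 (SE 0.99, adjusted p = 0.448). Fibroblasts themselves were the higher ones against cardiomyocytes, with a difference of cardiomyocyte from fibroblast cells of -4.25 (SE 1.03, adjusted p = 0.0919). With 18S as a covariate Zwint differed from cardiomyocytes by 5.25 (adjusted p = 0.0699), and with fibroTIPeR 4 and 5 alone, whose 18S levels lay within the cardiomyocyte range, it differed by 5.72 (adjusted p = 0.0463). The probe set carries a suffix that marks possible matches to several transcripts; with the mean of the 7 Zwint probe sets the difference was 1.40 (adjusted p = 0.0662), and with suffix-free probe sets alone it was 1.70 (adjusted p = 0.268). Another Zwint probe set, 1 of those 7, had a difference of 2.81 from cardiomyocytes (adjusted p = 0.0917 over all probe sets) and of 2.97 from fibroControl cells (adjusted p = 0.369). On the suffix-free probe set of highest mean, fibroTIPeR cells (5.38 to 7.74) lay above all cardiomyocytes (4.09 to 5.28). There they overlapped with fibroControl cells (6.32 to 8.60).

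The other genes of this role did not pass. Kif20a, a kinesin of cytokinesis, had 2.76 to 5.07 in fibroTIPeR and 2.77 to 3.82 in fibroControl cells, all below the 5.58, 5.63 and 6.92 of the fibroblasts. Its differences from fibroblasts were -2.22 (SE 0.74, adjusted p = 0.313 by limma) and -2.85 (SE 0.83, adjusted p = 0.0736); among cardiomyocytes it ranged over 1.87 to 6.37. Top2a, which untangles sister chromatids, was 4.67 to 5.42 in fibroTIPeR cells on the probe set used, above all cardiomyocytes (3.54 to 4.12), with a difference of 1.18 (SE 0.44, adjusted p = 0.235). On each other Top2a probe set these groups overlapped. One of nearly the same mean level had 3.22 to 6.58 in fibroTIPeR cells and 3.91 to 6.15 in cardiomyocytes. Mki67, the widely used marker of dividing cells, had 3.87 to 6.76 in fibroTIPeR, 3.96 to 7.12 in fibroControl, 4.39 to 5.21 in cardiomyocyte and 3.63 to 4.49 in fibroblast cells, which overlapped. Tpx2, a spindle assembly factor, had the smallest SD within groups of all members (0.17) on the probe set used, while another of its probe sets ran from 5.10 to 10.03.

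In astrocytes no member passed between astroTIPeR and mock-transfected astroControl cells (0 of 42, against 0.0495% of all genes). Only Rfc2 had an unadjusted p under 0.05 (9.44% of all genes), and 2 members did not overlap, Rfc4 and Bub1b (11.8%). Rfc2 had 5.46 to 9.64 (median 6.92) in astroTIPeR cells, against 5.98 and 4.12 in astroControl cells, and differed by 2.37 (SE 0.99, adjusted p = 0.413 by limma). The next smallest p belonged to Kif11, a spindle kinesin, with -1.27 (SE 0.67, adjusted p = 0.587), and Rfc5 with 1.76 (SE 0.94, adjusted p = 0.590). Melk had 5.20 to 9.50 (median 7.04) in astroTIPeR and 3.85 and 5.63 in astroControl cells, a difference of 2.51 (adjusted p = 0.649). The median member difference was 0.060, against 0.079 over all genes. The test of whether transfer went with another difference in fibroblasts than in astrocytes called no member (0 of 42, against 0% of all genes), and 3 had an unadjusted p under 0.05 (7.65% of all genes). They were Melk (-4.47, SE 2.02, adjusted p = 0.605), Kif11 (1.97, SE 0.91, adjusted p = 0.611) and Mcm4 (2.89, SE 1.36, adjusted p = 0.626). The fibroblast controls had received RNA and the astrocyte controls had not.

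Other genes of the same pathways were taken from wider lists. Of 34 measured genes of replication and licensing and of 27 of the E2F, retinoblastoma and CDK families, none passed in any comparison. Of 39 further genes of mitosis and cytokinesis, 2 passed. Cdc25c, a phosphatase that activates Cdk1, had 2.54, 2.55 and 3.26 in fibroControl cells, against 6.32, 7.48 and 7.97 in fibroblasts, without overlap (difference -4.47, SE 1.17, adjusted p = 0.0482 by limma). Cks1b, a small subunit of cyclin-dependent kinases, had 4.70 to 10.91 in fibroTIPeR cells and 10.66, 6.94 and 7.35 in fibroControl cells, against 5.10, 3.21, 3.05 and 2.85 in cardiomyocytes. It was higher by 4.82 (SE 1.09, adjusted p = 0.0357) and 4.77 (SE 1.24, adjusted p = 0.0324), with 1 fibroTIPeR cell inside the cardiomyocyte range; the fibroblasts had 5.60, 7.62 and 8.41. Fibroblast markers differed between the same cells: 4 of 7 were higher in fibroTIPeR cells than in cardiomyocytes, and the median of the 7 was 6.96 to 10.92 per cell in fibroTIPeR cells and 4.81 to 7.78 in cardiomyocytes. Their part in the Cks1b and Zwint differences was not tested.

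Where a gene had several probe sets, these often disagreed. In each of the 7 comparisons 16 to 23 of the 29 genes had a probe set of the other sign than the one used. Across the 23 cells, with values centred on group means, the mean correlation between probe sets of a gene had a median of -0.046 over the 29 genes, and was under 0 in 16 of them. Mcm4 (0.59) and Ccnd1 (0.53) were the 2 above 0.5. The points share amplification and array, and the correlations are a description. Over all 102 probe sets, each tested among 34945, fibroControl cells had 5 probe sets of 4 members past the threshold against fibroblasts (1.37% of all probe sets) and 3 of 2 members against cardiomyocytes (2.60%), fibroTIPeR cells had 2 of 2 members against cardiomyocytes (0.630%), and the others had 0: fibroTIPeR against fibroControl (0.00286%), fibroTIPeR against fibroblast (0.0286%), cardiomyocyte against fibroblast (0.160%) and astroTIPeR against astroControl cells (0.0744%).

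Ccnd2, a D-type cyclin, shows what the choice of probe set hides. The probe set used was flat, at 11.51 to 12.40 in all 23 cells. Another had 7.25, 10.99, 12.87, 7.65 and 7.29 in fibroTIPeR, 11.41, 10.62 and 9.52 in fibroControl, 5.10, 6.12, 5.20 and 4.70 in cardiomyocyte and 6.48, 6.89 and 7.15 in fibroblast cells. The fibroControl cells lay above all cardiomyocytes and fibroblasts, and fibroTIPeR cells lay above them too, by little in fibroTIPeR 1, 4 and 5. It was higher in fibroControl than in cardiomyocyte cells by 5.24 (adjusted p = 0.0179 over all probe sets, limma). A further one was higher than in cardiomyocytes by 3.63 in fibroTIPeR (adjusted p = 0.0309) and by 4.03 in fibroControl cells (adjusted p = 0.0163). Yet another was higher by 2.18 in fibroControl cells than in fibroblasts (adjusted p = 0.0474).

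**Figure D4:**
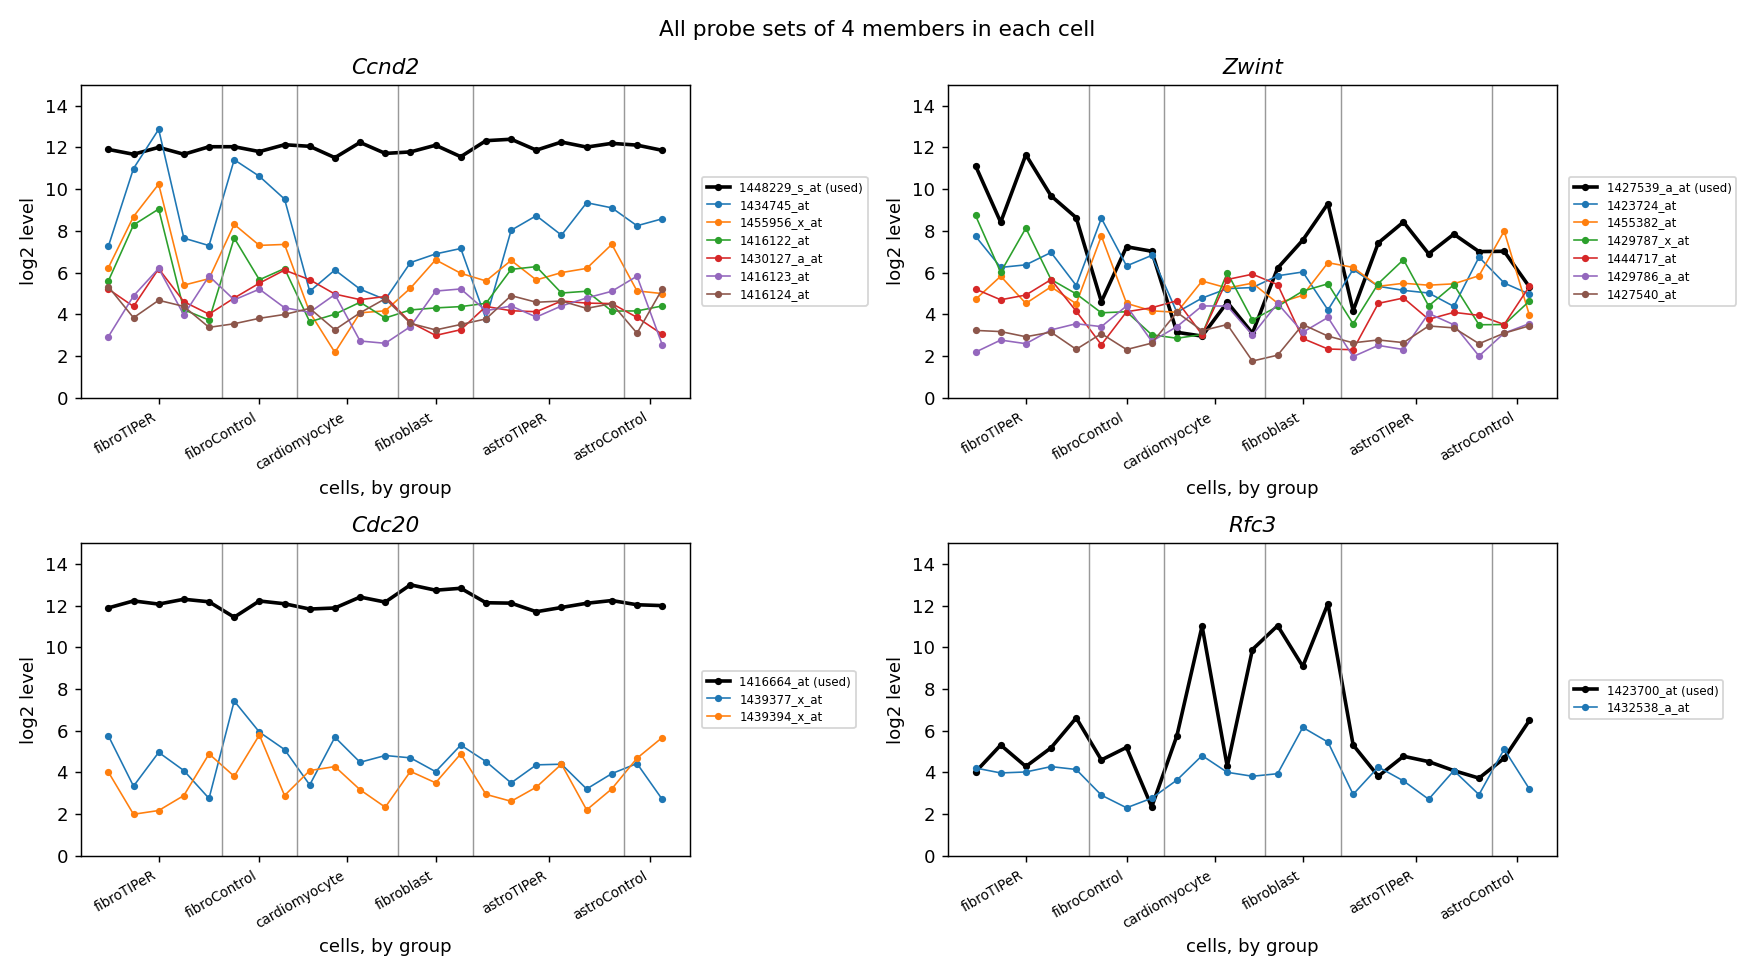
Log2 level of every probe set of Ccnd2, Zwint, Cdc20 and Rfc3 in each of the 23 cells, in label order (vertical lines part the groups, lines join a probe set's values, black marks the one used). The black Ccnd2 line stays between 11.51 and 12.40 while the blue one spans 3.78 to 12.87, and the black Zwint line lies at 8.41 to 11.65 in fibroTIPeR cells and at 2.95 to 4.58 in cardiomyocytes.

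Taken per cell on the probe sets used, no common movement of the members was seen. The number of members above the median of all genes of a cell, counted over the same probe sets, was 17 to 26 of 42 in fibroTIPeR, 19 to 26 in fibroControl, 20 to 25 in cardiomyocyte and 21 to 22 in fibroblast cells, and 19 to 23 in astroTIPeR and 20 to 25 in astroControl cells, with a mean of 21.3 over 23 cells. The 17 replication genes had a median level of 5.66 to 6.91 per cell in fibroTIPeR and 5.77 to 6.31 in fibroblast cells, and the 17 mitosis genes 4.49 to 5.83 and 5.38 to 5.53. Both sets spread over more of the scale in fibroTIPeR than in fibroblast cells, with 5 cells against 3. The SD within groups had a median of 1.09 over the members, against 0.99 over all genes, and was largest in Melk (2.08), above that of 98.4% of genes. Between members the correlation of values centred on group means averaged 0.013 over 861 pairs and 0.011 over the 15 pairs of Mcm2 to Mcm7, against 0.0049 over all pairs of genes. The highest was that of Rfc5 with Cenpa (0.84), the histone of centromeres, and the lowest that of Pcna with Ccnd3 (-0.76). On the probe sets used, Mcm7 (4.58), Rfc5 (6.34) and Cenpa (7.71) each had their lowest value among fibroTIPeR cells in fibroTIPeR 1. Other probe sets of Mcm7 did not show this. These values weigh on their correlations, which are descriptions over 23 cells with a shared amplification. Even probe sets of the same gene had mean correlations with a median of -0.046 over 29 genes. Low correlations between members therefore cannot show whether the genes moved together.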

How the data were processed

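Each of the 23 mouse samples was 1 cell on 1 Affymetrix array after RNA amplification, per the labels' protocols. The deposited table held log2 values for 45101 probe sets, judged from their range; no source used here says how the authors summarised, scaled or centred them. Column medians were 5.05 to 5.58 in 15 fibroblast and cardiomyocyte arrays and 4.28 to 4.56 in 8 astrocyte arrays, correlations between arrays were 0.546 to 0.918, and no pair was identical. Because the medians differed by 1.29, above a limit of 1, the columns were quantile normalized, so levels across the array sets rest on that step. Neither detection calls nor a background level entered.

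Control probe sets (64) were left out, as were those with several symbols (932) or not listed in the annotation (9160); 34945 carried 1 symbol, and each of 18193 genes was represented by its probe set of highest mean. No filter on low values was set. The test was limma 3.58.1 (R 4.3.3, statmod 1.5.0) with a mean per group over all 23 cells, eBayes with trend, two-sided, Benjamini-Hochberg adjustment over all genes and a threshold of 0.05. Motifs were searched and figures drawn with Python 3.11.15 and matplotlib 3.10.9. The scripts were tested on simulated data.

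The members, roles, wider lists and tests were chosen with earlier results of these data known. Text names every member past the threshold, or the 3 with the smallest p where none passed, the members whose probe sets had the highest and lowest mean level of each role (this rule only chose names, since levels of different probe sets cannot be ranked as expression), and up to 4 genes of the wider lists; other members were named after their values were seen. Replicate numbers of the labels did not pair the cells: of 21 pairs with equal numbers, correlations of deviations from group means were -0.34 to 0.29, 5 above 0.1, and 7 were the best match. Alternatives covered normalization, probe set choice, the level filter, the variance model, array weights, the block, 18S as a covariate, cell subsets and each cell left out.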

Additional observations from a re-analysis of the deposited data

Results flagged for a closer look

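Among 126 sets of cells (42 members in the 3 groups of 4 or more cells), 9 had 1 cell far from the others of its group, a gap that chance alone gives in about 1 in 20 such groups. These values are those of the probe set used for each gene. In fibroTIPeR cells, Mcm7 was 4.58 in fibroTIPeR 1, against 10.18 to 11.14 in the others. On each other Mcm7 probe set fibroTIPeR 1 was instead the highest of these cells. Birc5, an inhibitor of apoptosis and part of the chromosomal passenger complex, was 3.34 in fibroTIPeR 2, against 4.49 to 4.89. Among cardiomyocytes, Mad2l1 was 9.91 in cardiomyocyte 2 (others 5.49 to 5.93), Zwint was 4.58 in cardiomyocyte 3 (others 2.95 to 3.13) and Kif11 was 6.63 in cardiomyocyte 1 (others 5.67 to 5.76). In astroTIPeR cells, Mcm2 was 4.78 in cell 3 (others 5.90 to 6.28), Ccnd3, a D-type cyclin, was 8.55 in cell 4 (others 9.97 to 10.63), Cdk1 was 5.94 in cell 6 (others 3.60 to 4.46) and Zwint was 4.17 in cell 1 (others 6.90 to 8.42). No cell held more than 1 of these values.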

How the results depend on the processing

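The count of members past the threshold was 0 for fibroTIPeR against fibroControl cells and for the difference between recipient types under every setting run, and 0 to 1 for astroTIPeR against astroControl cells with 1 cell left out. For fibroTIPeR against fibroblast cells the count of 1 became 0 with quantile normalization within each array set, median centring, only genes above the median level, averaged probe sets, every probe set, eBayes without trend, the replicate block, 18S as a covariate, the compared groups alone or fibroTIPeR 4 and 5 alone, 2 with array weights (Mcm4 and Melk), 5 with fibroTIPeR 1 to 3 alone, and 0 to 2 with 1 cell left out. For fibroControl against fibroblast cells the count of 3 became 1 (Rfc3) with median centring, eBayes without trend or the compared groups alone, 5 with array weights, 0 with 18S as a covariate, 2 with the replicate block (Cdc20 lost), and 1 to 2 with 1 cell left out. For cardiomyocyte against fibroblast cells the count of 0 became 5 with array weights, 1 with 18S (Zwint), and 0 to 1 with 1 cell left out. For fibroTIPeR against cardiomyocyte cells the count of 1 became 0 with the mean of all probe sets, with probe sets lacking a cross-matching suffix and with 18S, 2 with every probe set, 5 with fibroTIPeR 1 to 3 alone, and 1 to 2 with 1 cell left out. For fibroControl against cardiomyocyte cells the count of 1 became 2 with genes above the median level, the mean of probe sets, every probe set, suffix-free probe sets, eBayes without trend or array weights, 4 with the compared groups alone, 0 with 18S, and 0 to 1 with 1 cell left out. Cdc20 reversed to 0.18 in fibroControl against fibroblast cells with the mean of its probe sets. The mean number of members above the cell median, 21.3, became 17.0 with the mean of probe sets and 18.8 with suffix-free probe sets. The cause of these changes was not tested.

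Over all genes, calls for fibroControl against fibroblast cells numbered 283, with 1890 under array weights, 163 with the replicate block and 0 with 18S; for fibroTIPeR against fibroblast cells 10, with 610 from fibroTIPeR 1 to 3 alone; for fibroControl against cardiomyocyte cells 604, with 1325 under array weights, 321 with the replicate block and 6 with 18S. The replicate block is given although the numbers did not pair the cells. Groups of 2 to 6 cells, 1 library per cell and values with no detection call limit what can be seen, and a member that missed the threshold is not shown to be equal between groups.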
